A study of Mus musculus with 96 samples.

Results

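Transmitter release was followed here through 43 genes that encode synaptic vesicle proteins, the SNARE fusion proteins with their regulators, calcium sensors, Rab3 GTPases, active zone proteins and 2 proteins of vesicle retrieval. They were chosen by gene symbol, with earlier results of these data known, and all 43 were found among the 38887 genes of the expression table. The libraries came from single neurons of the lateral superior olive (LSO), an auditory brainstem nucleus, in slices of C57BL/6J mice of both sexes in the second postnatal week. After whole-cell recording, the cytoplasm was sucked into the pipette and sequenced by a modified Smart-seq2 protocol, which amplifies polyadenylated RNA. Neurons were grouped by their labelled firing pattern. Principal LSO neurons (pLSOs) fired in an Onset pattern (41 neurons) or a Sustained pattern (11 neurons), and lateral olivocochlear neurons (LOCs) fired after a delay (28 neurons). For a negative control, a pipette touched the slice and its content was processed in the same way (8 libraries). Another 6 neurons and 2 controls were left out because label and cluster membership, or deposited and published values, disagreed. No label names an animal, so each class counts as 1 sample, no test was made between classes, and SDs and intervals describe neurons and counting error only. The pipette reached the soma, so transcripts in axon terminals, where release takes place, were not sampled.

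A synaptic vesicle fuses with the presynaptic membrane when its SNARE protein synaptobrevin (Vamp genes) zips up with syntaxin and SNAP25, a step that complexins clamp and that synaptotagmins trigger on calcium entry. Rab3 proteins, Rims, Munc13s (Unc13 genes), ELKS proteins (Erc genes), bassoon and piccolo bring vesicles to the active zone and make them ready to fuse, and CAPS proteins (Cadps genes) prime dense-core vesicles that hold neuropeptides. pLSOs are the projection neurons of the LSO and signal with fast transmitters, whereas LOCs send axons to the cochlea, where they release acetylcholine and peptides.

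The class labels were first compared with marker genes. The summed level of 6 pLSO markers (Spp1, Lpgat1, Tenm2, Igsf3, Kcnh7, Slc17a6) ranged from 14 to 1700 TPM in pLSOs with a median of 589 TPM, and from 0 to 308 TPM in LOCs with a median of 1 TPM. The summed level of 6 LOC markers (Calca, Calcb, Ucn, Isl1, Gata3, Nxph1) ranged from 0 to 82 TPM in pLSOs and from 22 to 6062 TPM in LOCs, and Ucn and Isl1 were at 0 in all 52 pLSOs. In single neurons the sums went against the label. The LOC with 308 TPM of pLSO markers (cell_76) was the one with 22 TPM of LOC markers. The Sustained neurons cell_47 (14 and 43 TPM) and cell_45 (46 and 48 TPM) held less of the pLSO than of the LOC markers. These markers were known from earlier results on the same neurons. The 80 neurons held between 1175 and 6276 detected genes each (medians of 2560.5 for pLSOs and 2394 for LOCs), and the negative controls 285 to 1271. A gene was taken as detected at 1 TPM or more, a unit that scales read counts by gene length and by library total. The deposited values hold no read counts, so the sequencing depth behind a value is not known from them.

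The LOC-side genes Cadps2 and Rab3b and the pLSO-side gene Syt2 had the largest differences in the share of neurons with the transcript. To place them in the genome, the 100 bases before a start of each gene are shown, from RefSeq on GRCm38.p6, in the direction of transcription, with GC boxes (GGGCGG or CCGCCC, read on both strands, overlaps included) in capitals. The Syt2 window is chr1:134709200-134709299 on the plus strand and lies within the annotated gene at an internal start, the Cadps2 window is chr6:23839422-23839521 on the minus strand, and the Rab3b window is chr4:108878970-108879069 on the plus strand, its last bases overlapping the annotated gene.
Syt2: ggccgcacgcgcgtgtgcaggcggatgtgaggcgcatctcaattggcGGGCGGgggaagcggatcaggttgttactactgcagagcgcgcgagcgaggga
Cadps2: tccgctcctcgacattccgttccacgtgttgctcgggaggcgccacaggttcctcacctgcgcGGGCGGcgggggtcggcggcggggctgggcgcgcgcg
Rab3b: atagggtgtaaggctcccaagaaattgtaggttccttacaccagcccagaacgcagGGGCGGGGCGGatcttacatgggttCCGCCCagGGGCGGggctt

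The Rab3b window held 4 GC boxes, and the windows of Syt2 and Cadps2 held 1 each. Of the 43 genes, 37 had an entry, with 45 start sites in all, and 20 of these windows (44.4%) held a GC box, against 24.7% of 32851 windows over 27025 genes. Among genes higher in pLSOs 6 of 10 windows held it, and among genes higher in LOCs 3 of 6 windows held it. Snap25, Syt4, Syt7, Vamp2, Rims2 and Doc2b had no entry. A match is a run of letters and describes no factor binding.

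Detection of the 43 release genes was broad but incomplete in single neurons. In a pLSO between 9 and 30 of them were detected, with a median of 19.5, and in a LOC between 8 and 30, with a median of 17.5. A negative control held between 1 and 15, with a median of 9.5. Both neuron classes therefore overlapped over nearly their whole range, and the lowest neurons overlapped with the controls. In 80 neurons 18 genes were detected in at least 50% of neurons, 11 in fewer than 20%, 0 in every neuron and 1 (Sv2b) in no neuron. The number of release genes detected followed the number of all genes detected, with Pearson's r of 0.82 across the 52 pLSOs and 0.67 across the 28 LOCs, where both numbers come from the same library and share its depth.

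**Figure D1:**
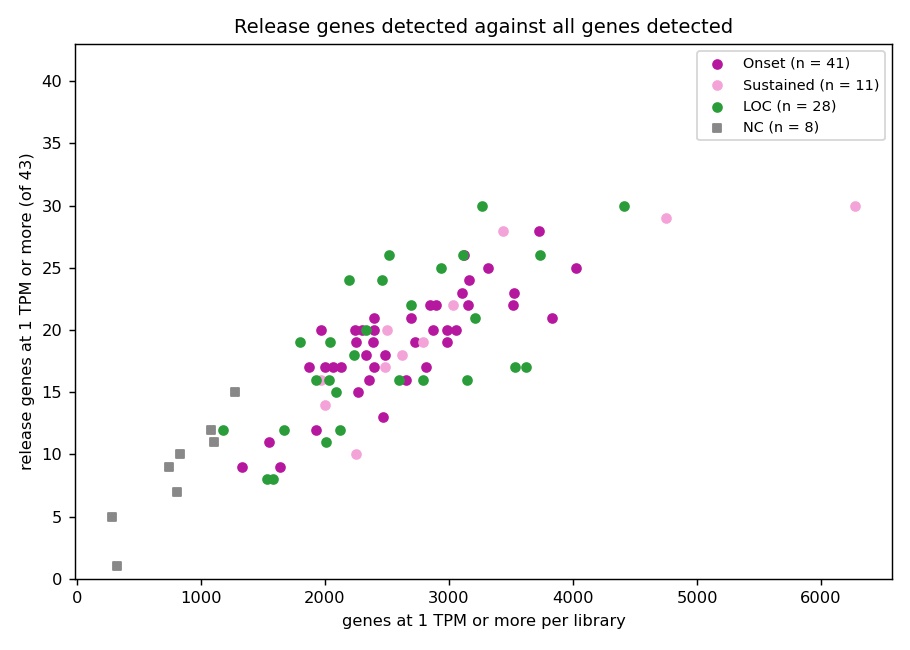
Release genes at 1 TPM or more (of 43, vertical axis) against all genes at 1 TPM or more (horizontal axis) in each library, 1 point per library, for 41 Onset, 11 Sustained, 28 LOC and 8 negative control libraries. Neurons of all classes lie on a common band that rises from 8 to 30 release genes, and the controls sit at its lower end with 1 to 15.

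Levels between genes can be compared only after a correction, because the deposited values appear to have been divided by gene lengths sorted along the rows and not by each gene's own length. The order of genes given next rests on that reading of the values. Rescaled to each gene's own length, with the same total in each library, Snap25, the plasma membrane SNARE, had the highest mean of all 43 genes in both classes, at 897.4 rescaled TPM in pLSOs and 686 in LOCs. Rab3a, the vesicle GTPase, came next at 897.0 and 647 rescaled TPM. In pLSOs the complexin gene Cplx1 (835 rescaled TPM), Syt11 (500.1) and Napa (291) followed, and in LOCs Napa (223), Syt11 (212), Syt4 (179), Rab3b (174) and Syp (166). Cplx1 stood at only 108 rescaled TPM in LOCs, and Rab3b at 6.96 in pLSOs. The first 2 places in each class did not differ beyond the spread over neurons. All other values below are deposited TPM, compared only within a gene.

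Between pLSOs and LOCs, a gene was compared when it was detected in at least 20% of the neurons of either class, which held for 34 of the 43 genes, and it was called when the ratio of mean TPM was at least 2 both over all neurons and without the highest neuron of each class. By this measure 9 genes were higher in pLSOs (26.5% of 34, against 21.0% of 5651 genes in the whole table) and 5 were higher in LOCs (14.7%, against 15.3%). The share of release genes called thus lay near that of all genes, more so on the LOC side, and the median log2 ratio (pLSO over LOC, mean TPM + 1) was 0.20 over release genes and 0.00 over all measured genes. On the rescaled values 12 genes were higher in pLSOs and 4 in LOCs (25.3% and 12.4% of the whole table), while the median of all genes moved to 0.20. With all 56 pLSOs and 30 LOCs as labelled, 10 and 6 genes were called (19.4% and 16.7% of the whole table). In the 37 pLSOs and 18 LOCs with 2000 to 3500 genes detected, 10 and 7 genes were called (23.6% and 18.5% of the whole table), the median log2 ratio over release genes was 0.00, and a median of 19.0 release genes was detected per pLSO and 19.5 per LOC.

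At a ratio of at least 4, 5 genes were left on the pLSO side (Syt2, Cplx1, Rims2, Erc1, Amph) and 4 on the LOC side (Rab3b, Syn2, Cadps, Cadps2), which is 14.7% and 11.8% of the 34 release genes, against 10.1% and 6.46% of the whole table. Each of these genes also differed between the classes by at least 20 percentage points in the share of neurons, a rule added after the values were seen, and both conditions together held for 4.71% and 3.42% of the whole table. Not compared for low detection were Syt9, Doc2b, Rab3d, Rimbp2, Unc13b, Unc13c, Sv2b, Sv2c and Sypl.

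Summed markers of other cell types differed between the classes as well. The 6 oligodendrocyte markers summed to 0 to 6658 TPM in pLSOs (median 107.5) and to 1 to 5104 TPM in LOCs (median 232.5), and in negative controls to 389 to 7794 TPM (median 3642). For the 6 astrocyte markers the ranges were 0 to 2930 TPM in pLSOs and 0 to 13459 TPM in LOCs (medians of 35.5 and 42). Aldh1l1 and Gja1 were at 0 in all LOCs, while Slc1a2 (means of 239 and 1102 TPM in pLSOs and LOCs) and Slc1a3 (45.5 and 131 TPM) were higher in LOCs. For the 6 microglia markers the sums were 0 to 1782 and 0 to 503 TPM (medians of 1 and 8), with Tmem119 at 0 in all LOCs and P2ry12 in 23.1% of pLSOs and 35.7% of LOCs, and for the 5 endothelial markers 0 to 778 and 0 to 533 TPM, with Kdr at 0 in every neuron. Without the neurons in which oligodendrocyte or astrocyte markers summed to over 1000 TPM, 41 pLSOs and 19 LOCs remained, and 13 release genes were called for pLSOs and 5 for LOCs (39.4% and 15.2% of 33, against 24.0% and 17.8% of the whole table in the same neurons). The part of these cell types in the results was not tested further.

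**Figure D2:**
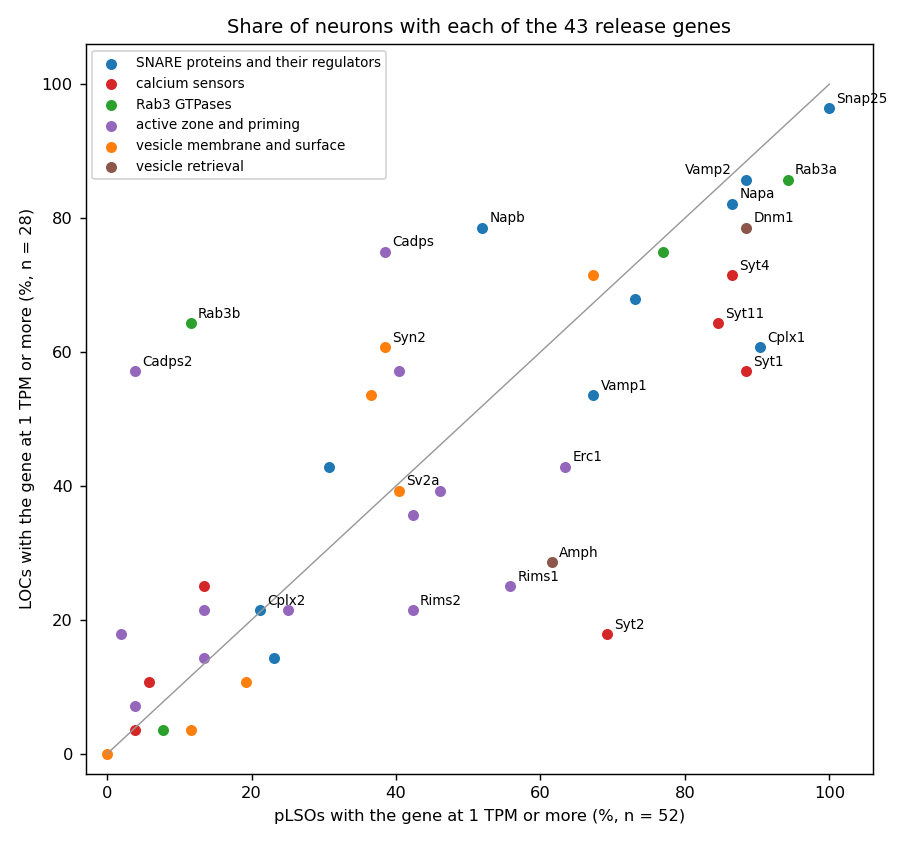
Share of LOCs (vertical axis, n = 28) against share of pLSOs (horizontal axis, n = 52) with each of the 43 genes at 1 TPM or more, 1 point per gene, coloured by role, with the line of equal shares. Syt2 (69.2% of pLSOs, 17.9% of LOCs) lies farthest below the line, and Cadps2 (3.85% and 57.1%) and Rab3b (11.5% and 64.3%) lie farthest above it.

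Among the genes listed as calcium sensors, 3 of 5 compared genes were higher in pLSOs and 0 in LOCs, with a median log2 ratio of 0.95. Over all genes 21.0% and 15.3% were called. The 3 genes were Syt1, Syt2 and Syt11, and the median was the value of Syt11, which does not bind calcium. Of the 3 other calcium sensor genes compared, 1 was higher in pLSOs (Syt3) and 1 in LOCs (Syt5), and their median was -1.11. Syt2 (chr1:134646677-134762593) encodes synaptotagmin 2, the fast calcium sensor of many brainstem synapses. Its level ran from 0 over a median of 9 to 235 TPM in pLSOs and from 0 over a median of 0 to 197 TPM in LOCs, and 0 to 11 TPM in negative controls. Most LOCs were at 0, and only 1 LOC reached the upper pLSO range, so the classes overlapped through few neurons.

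Syt2 was detected in 36 of 52 pLSOs (69.2%, exact 95% interval 54.9 to 81.3) and in 5 of 28 LOCs (17.9%, 6.06 to 36.9). pLSOs averaged 39.8 ± 60.6 TPM and LOCs 8.43 ± 37.4 TPM (SD over neurons), a ratio of 4.73 that became 24.9 without the highest neuron of each class. It was 16.4 with geometric means and 2.13 in the neurons with 2000 to 3500 genes detected.

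Syt1 (chr10:108497650-109010982) encodes synaptotagmin 1, the fast calcium sensor of most forebrain synapses. It ranged from 0 to 75 TPM in pLSOs (median 18.5) and from 0 to 53 TPM in LOCs (median 3), and it was at 0 in all 8 negative controls. The ranges overlapped throughout, with the LOCs shifted to low values. Detection was 88.5% in pLSOs (76.6 to 95.6) and 57.1% in LOCs (37.2 to 75.5), and the means of 22.6 ± 20.1 and 7.39 ± 12.7 TPM gave a ratio of 3.06.

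Syt11 (chr3:88744700-88775164) belongs to the synaptotagmins that do not bind calcium. It ranged from 0 to 74 TPM in pLSOs (median 13.5) and from 0 to 36 TPM in LOCs (median 2), with 84.6% and 64.3% of neurons detected. At a ratio of 2.04 it was the smallest difference called, and the classes overlapped broadly. Syt4, a synaptotagmin with altered calcium binding, did not reach 2-fold, with 86.5% of pLSOs and 71.4% of LOCs detected and means of 220.8 and 205.4 TPM.

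The slow, high-affinity sensor Syt7 was detected in 13.5% of pLSOs and 25.0% of LOCs. Syt9, a further fast sensor, was in 3.85% and 3.57%, and the soluble sensor Doc2b in 5.77% and 10.7%. These shares are not ranked between genes, because 1 TPM appears to stand for different read numbers in different genes. For these 3 genes the intervals of the classes overlapped.

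Of the 10 SNARE genes and regulators, all of which were compared, 3 were higher in pLSOs and 0 in LOCs, and the median log2 ratio was 0.47. Over all genes 21.0% were called for pLSOs and 15.3% for LOCs. Complexin 1 (Cplx1, chr5:108518554-108550024) is a small protein that binds the assembled SNARE complex. Its level ran from 0 to 168 TPM in pLSOs with a median of 45.5 TPM, and from 0 to 44 TPM in LOCs with a median of 1 TPM. The highest LOC thus lay below the median pLSO.

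Cplx1 was detected in 47 of 52 pLSOs (90.4%, 79.0 to 96.8) and 17 of 28 LOCs (60.7%, 40.6 to 78.5), intervals that did not overlap. Means were 53.4 ± 46.2 and 7.93 ± 12.7 TPM, a ratio of 6.74. In the negative controls Cplx1 stood at 94, 0, 991, 0, 3, 0, 0 and 16 TPM, so that 4 of 8 held it, and 1 of them exceeded every neuron.

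Vamp1 (chr6:125215551-125245964), synaptobrevin 1, ranged from 0 to 152 TPM in pLSOs (median 4.5) and from 0 to 70 TPM in LOCs (median 1.5). It was detected in 67.3% and 53.6% of neurons, intervals of which overlapped, and the means of 25.8 ± 38.9 and 8.07 ± 14.7 TPM had a ratio of 3.19. High values of Vamp1 were found in a subset of pLSOs, while others were at 0.

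Cplx2 (chr13:54371349-54383917) was called for pLSOs on few neurons. It was detected in 21.2% of pLSOs and 21.4% of LOCs, both below the 37.5% of negative controls, and 198 TPM in 1 pLSO was the highest value. The ratio was 3.86 over all neurons, 2.24 without the highest neuron of each class and 1.56 with geometric means, so no difference in expression is read from it.

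Transcripts of the core fusion proteins were detected in both classes. Snap25 was in all 52 pLSOs (93.2 to 100%) and 27 of 28 LOCs (96.4%), with 8 to 1729 TPM (median 531) and 0 to 1606 TPM (median 413). In the negative controls Snap25 stood at 0, 10, 3002, 199, 594, 5033, 5 and 22 TPM. The values of 3002 and 5033 TPM exceeded every neuron. Synaptobrevin 2 (Vamp2) was detected in 88.5% and 85.7% with medians of 177.5 and 86.5 TPM. Syntaxin 1A (Stx1a), the plasma membrane partner, was seen in only 23.1% and 14.3%, and at 0 in all controls.

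Napa and Napb encode alpha- and beta-SNAP, which with the ATPase NSF take the spent SNARE complex apart. Napa was detected in 86.5% of pLSOs and 82.1% of LOCs, and Nsf in 73.1% and 67.9%. Napb was found more often in LOCs, 78.6% (59.0 to 91.7) against 51.9% (37.6 to 66.0), with overlapping intervals and a ratio of means below 2. Tomosyn (Stxbp5), a blocker of SNARE assembly, was in 30.8% of pLSOs and 42.9% of LOCs, beside 37.5% of controls.

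Of the 4 Rab3 GTPases, 3 were compared, 1 was higher in LOCs and 0 in pLSOs, where 15.3% and 21.0% of all genes were called. Rab3b (chr4:108879063-108943324) ranged from 0 to 3577 TPM in pLSOs, with a median of 0, and from 0 to 8559 TPM in LOCs, with a median of 1999 TPM. LOCs were either at 0 or, with 1 exception, at high values, whereas 46 of 52 pLSOs were at 0. If the values were divided by sorted lengths, those of Rab3b were divided by 3.21 bases, against 3524 bases of its own. Few reads would then give a high value, and the part of this in the split between 0 and high values was not tested. Detection was 11.5% (4.35 to 23.4) in pLSOs and 64.3% (44.1 to 81.4) in LOCs, and 1 of 8 controls held 6751 TPM.

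The ratio of mean Rab3b (LOC over pLSO) was 33.6, and 223 without the highest neuron of each class, since 1 Onset neuron gave most of the pLSO mean, and 321 with geometric means. Rab3a was nearly general, in 94.2% of pLSOs and 85.7% of LOCs, with medians of 72 and 59.5 TPM. Rab3c was in 76.9% and 75.0%, with medians of 37 and 80.5 TPM. Rab3d, the fourth family member, was in 7.69% and 3.57%.

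Among the 13 active zone and priming genes, 10 were compared, with 2 higher in pLSOs and 2 in LOCs. Over all genes the shares called were 21.0% and 15.3%. Both genes on the LOC side encode CAPS proteins. Cadps2 (chr6:23262773-23839421) ranged from 0 to 15 TPM in pLSOs and from 0 to 2459 TPM in LOCs, where the median was 5.5 TPM. It was at 0 in all Sustained neurons and in all negative controls, and the values above 15 TPM were all in LOCs.

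Cadps2 was detected in 2 of 52 pLSOs (3.85%, 0.469 to 13.2) and 16 of 28 LOCs (57.1%, 37.2 to 75.5). The means were 0.308 ± 2.08 and 279.8 ± 561 TPM, and no ratio is given because 2 pLSOs alone made the lower mean. Without the neurons with high glial markers, Cadps2 was in 2 of 41 pLSOs (4.88%) and 8 of 19 LOCs (42.1%). A link of Cadps2 to glial markers was not tested. Its paralog Cadps (chr14:12372563-12823079) ranged from 0 to 42 TPM in pLSOs (median 0) and from 0 to 59 TPM in LOCs (median 8.5). Detection of Cadps was 38.5% (25.3 to 53.0) and 75.0% (55.1 to 89.3), and means of 2.83 ± 6.76 and 13.96 ± 15.8 TPM gave a ratio of 4.94 (LOC over pLSO). It was also in 3 of 8 controls, at up to 105 TPM.

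On the pLSO side, Rims2 (chr15:39198261-39684372), an active zone scaffold that binds Rab3, ranged from 0 to 129 TPM in pLSOs and from 0 to 10 TPM in LOCs, with medians of 0, and it was at 0 in all controls. Values above 10 TPM were thus found in pLSOs only. It was detected in 42.3% (28.7 to 56.8) and 21.4% (8.30 to 41), with a ratio of 8.16. Erc1 (chr6:119570796-119848167), an ELKS scaffold protein, ranged from 0 to 121 TPM in pLSOs (median 2) and from 0 to 34 TPM in LOCs (median 0), with 63.5% and 42.9% detected and a ratio of 4.28.

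Rims1 was detected more often in pLSOs, 55.8% (41.3 to 69.5) against 25.0% (10.7 to 44.9), but the means were 5.02 and 5.32 TPM because 1 LOC held 112 TPM. Without the highest neuron of each class they were 4.55 and 1.37 TPM. Unc13a, the main Munc13 priming factor, was in 40.4% of pLSOs and 57.1% of LOCs, Unc13b in 13.5% and 14.3%, and Unc13c in 1.92% and 17.9%.

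The large scaffold genes Pclo (42.3% and 35.7%) and Bsn (13.5% and 21.4%), the second ELKS gene Erc2 (25.0% and 21.4%) and the scaffold gene Lin7b (46.2% and 39.3%) were in shares of pLSOs and LOCs whose intervals overlapped. The Rim-binding protein gene Rimbp2 was in 3.85% and 7.14%. None of these 5 genes was called between the classes by the main rule. Called for pLSOs were Pclo and Erc2 on rescaled values, Erc2 with all labelled libraries and Lin7b with geometric means. Without the neurons with high glial markers, Pclo, Erc2 and Lin7b were called for pLSOs. Without a minimum share, Rimbp2 was called for LOCs.

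Of the 7 vesicle membrane and surface genes, 4 were compared, 2 were higher in LOCs and 0 in pLSOs. Over all genes the shares called were 15.3% for LOCs and 21.0% for pLSOs. Synapsin II (Syn2, chr6:115134902-115282006) tethers vesicles to each other. It ranged from 0 to 1683 TPM in pLSOs (median 0) and from 0 to 6346 TPM in LOCs (median 23), with a ratio of 7.20 (LOC over pLSO). The detection of 38.5% in pLSOs lay below and that of 60.7% in LOCs lay near the 50.0% of negative controls, of which 1 held 11793 TPM, more than any neuron.

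Sv2a (chr3:96181151-96195521), a vesicle glycoprotein, was in 40.4% of pLSOs and 39.3% of LOCs, with ranges of 0 to 68 and 0 to 89 TPM. Its ratio of 2.32 (LOC over pLSO) rested on a few high LOCs and became 1.85 on the rescaled values and 1.39 with geometric means. Synaptophysin (Syp), the most abundant vesicle membrane protein, was in 67.3% and 71.4% with medians of 14 and 35 TPM, and Syn1 in 36.5% and 53.6%. The synaptophysin-like gene Sypl was in 19.2% and 10.7%, and Sv2c in 11.5% and 3.57%. Sv2b was in 0 of 80 neurons, which in 52 pLSOs allows a share of up to 5.77% and in 28 LOCs of up to 10.7%.

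Vesicle retrieval was represented by dynamin 1 (Dnm1), which cuts off endocytic vesicles, and amphiphysin (Amph), which recruits it. Amph (chr13:18948205-19150921) ranged from 0 to 1508 TPM in pLSOs (median 8.5) and from 0 to 504 TPM in LOCs (median 0), and 1 control held 17 TPM. It was detected in 61.5% (47.0 to 74.7) and 28.6% (13.2 to 48.7), and the ratio of 6 became 11.4 without the highest neuron of each class. Dnm1 was in 88.5% and 78.6% with medians of 15 and 16.5 TPM.

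**Figure D3:**
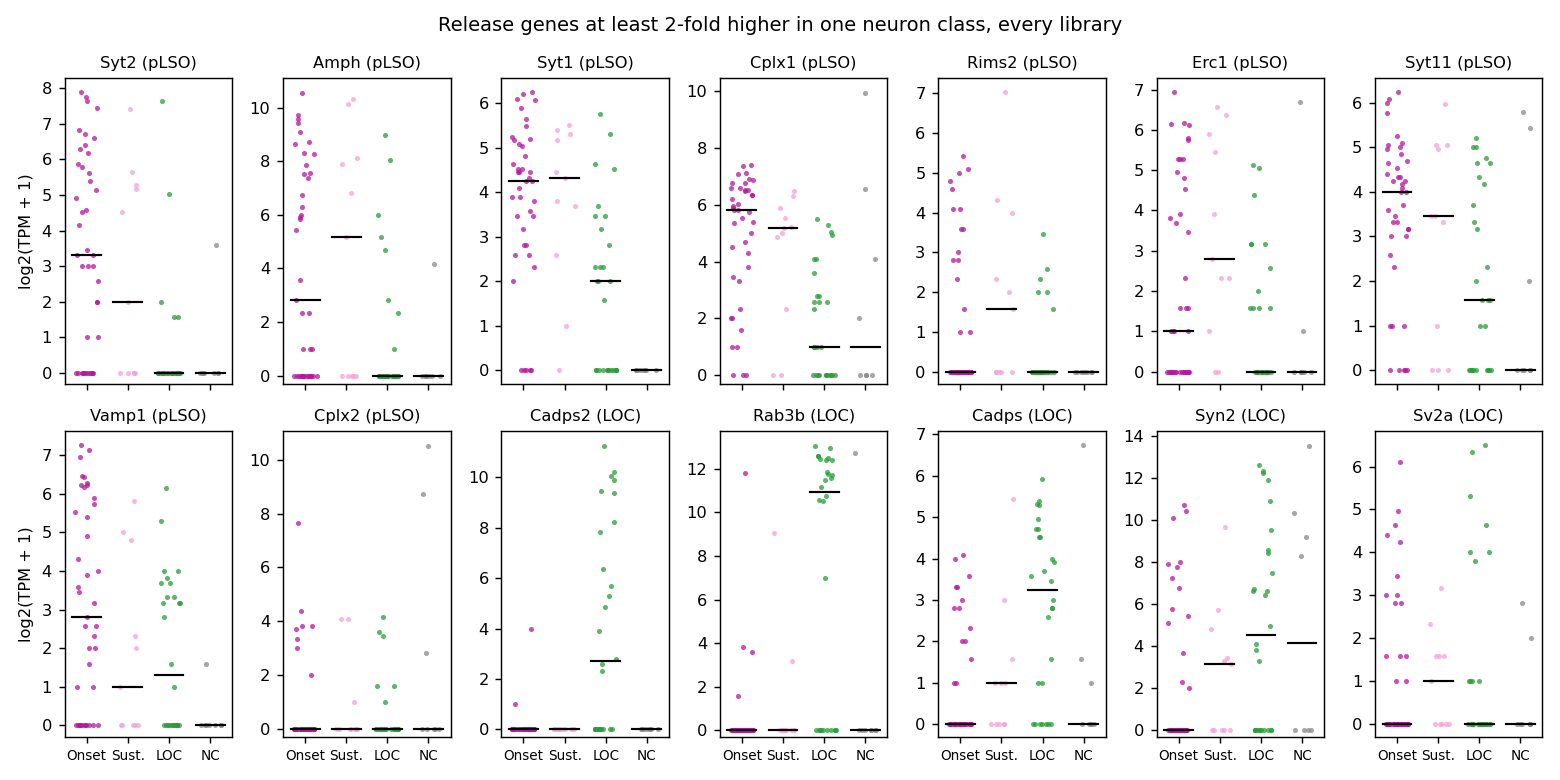
Level of the 14 called genes, as log2(TPM + 1) on the vertical axis, in every library, 1 point per library, with the median as a black line, for Onset, Sustained, LOC and negative control (NC) libraries; the class in brackets is the one with the higher mean. Rab3b reaches a median of 1999 TPM in LOCs beside 0 in pLSOs, while points at 0 occur in both neuron classes for every gene shown.

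Paralogs were then compared within each neuron, by which of the pair had the higher rescaled value. Syt1 and Syt2 were detected together in 32 of 52 pLSOs and 3 of 28 LOCs, and neither was detected in 2 pLSOs and 10 LOCs. Syt1 was the higher of both in 40 pLSOs and 15 LOCs. A LOC with either sensor thus held Syt1 alone in most cases (13 LOCs).

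Cplx1 exceeded Cplx2 in 47 of 52 pLSOs and 16 of 28 LOCs, and 10 LOCs had neither. Vamp2 exceeded Vamp1 in 37 pLSOs and 21 LOCs, that is, in most neurons of both classes. Rab3a exceeded Rab3b in 49 pLSOs and 23 LOCs, so Rab3b was for the most part found beside Rab3a (16 LOCs with both) and not in its place.

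Rab3b exceeded Rab3c in 3 pLSOs and 16 LOCs. Cadps and Cadps2 were detected together in 1 pLSO and 11 LOCs, and neither in 31 pLSOs and 2 LOCs. Rims1 and Rims2 were detected together in 16 pLSOs and 2 LOCs, and neither in 17 and 17. For synapsins, 25 pLSOs and 5 LOCs had neither Syn1 nor Syn2.

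**Figure D4:**
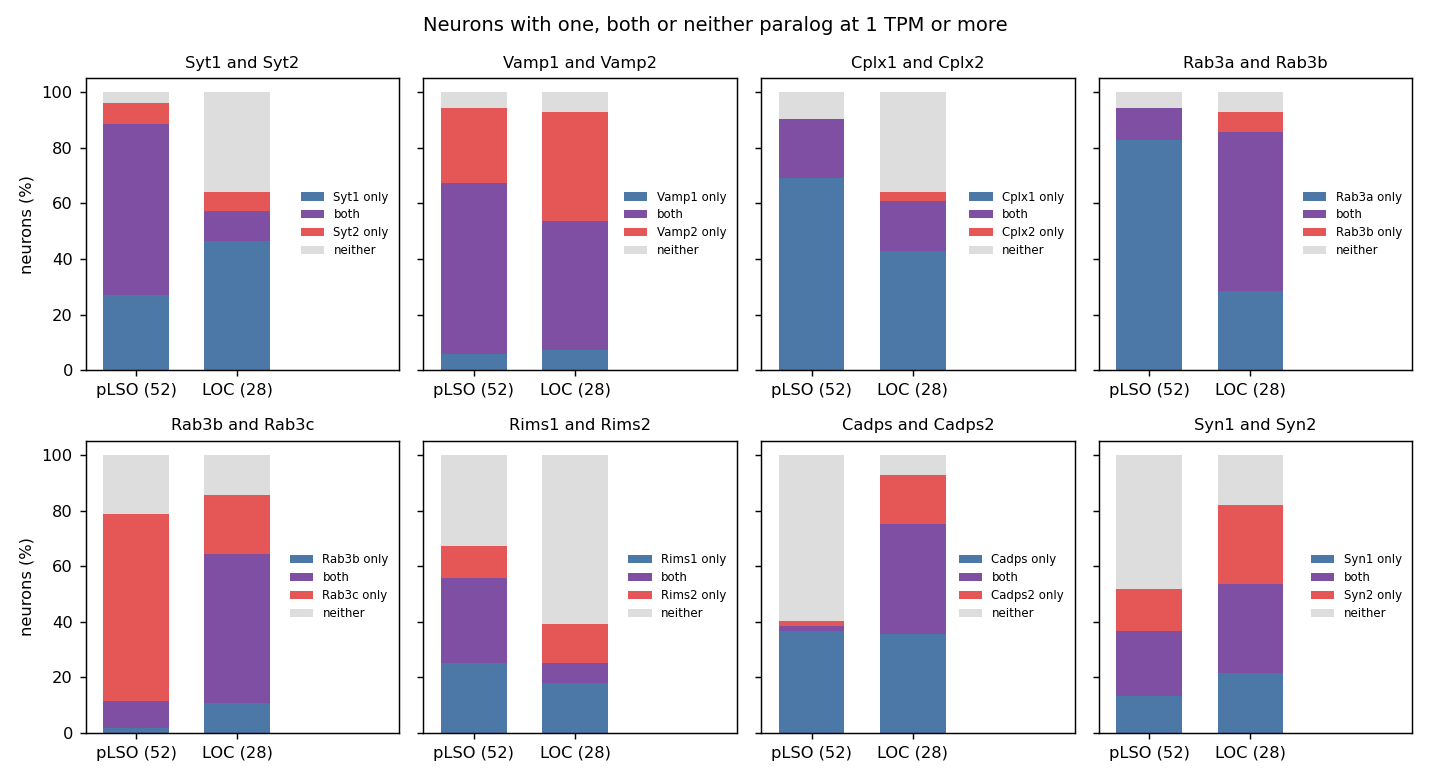
Share of neurons (%, vertical axis) in which the first, both, the second or neither gene of 8 paralog pairs was at 1 TPM or more, as stacked bars for 52 pLSOs and 28 LOCs. The segment for both Syt1 and Syt2 covers 32 pLSOs and 3 LOCs, and that for both Cadps and Cadps2 covers 1 pLSO and 11 LOCs.

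Combinations of called genes also differed between the classes, as these genes were chosen for their differences. All of Syt1, Syt2, Vamp1 and Cplx1 were detected in 24 of 52 pLSOs (46.2%) and 2 of 28 LOCs (7.14%). At least 1 of Rab3b and Cadps2 was detected in 24 LOCs and 8 pLSOs, and both in 10 LOCs and 0 pLSOs. No negative control could hold all genes of either combination, because Syt1 and Cadps2 were at 0 in all 8 controls.

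Within pLSOs, 32 of the 43 genes were detected in at least 20% of Onset or Sustained neurons and were compared. Higher in Onset neurons were 11 (34.4%, against 22.9% of 5839 genes) and higher in Sustained neurons 2 (6.25%, against 15.7%), and the median log2 ratio (Onset over Sustained) was 0.41 over release genes and -0.03 over all measured genes. With geometric means 7 and 4 genes were called (16.4% and 24.6% of the whole table), while the median of all genes stood at -0.44. At a ratio of at least 4, only Stxbp5 and Nsf (2 genes, against 10.6% of the whole table) were higher in Onset neurons and 0 in Sustained neurons (against 7.16%). The 11 Sustained neurons limit this comparison, since a single neuron can set their mean. Of 49 further release genes 12 were higher in Onset and 4 in Sustained neurons, with a median log2 ratio of 0.05. Of the 6 microglia markers, 5 were in a larger share of Sustained than of Onset neurons, such as C1qa (45.5% and 17.1%) and C1qb (54.5% and 26.8%), and Csf1r was not (2 of 11 and 9 of 41 neurons). Their summed level was 0 to 1221 TPM there (median 12) and 0 to 1782 TPM in Onset neurons (median 0), with all 6 markers detected in both patterns. Their part in the result was not tested.

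On the Onset side were the SNARE genes Vamp1, Stx1a, Stxbp5 and Nsf, the GTPase gene Rab3a, the active zone genes Rims1, Unc13a and Pclo, and the vesicle genes Syn1, Sv2a and Syp. Rab3a ranged from 0 to 192 TPM in Onset neurons (median 82) and from 0 to 115 TPM in Sustained neurons (median 38), a ratio of 2.14 with 95.1% and 90.9% detected. Nsf ranged from 0 to 345 TPM (median 18) and from 0 to 37 TPM (median 4), a ratio of 5.32. Both genes thus differed in level more than in detection, and both patterns overlapped at low values.

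Syp ranged from 0 to 205 TPM in Onset neurons (median 17) and from 0 to 70 TPM in Sustained neurons (median 1), a ratio of 2.68. Stx1a was detected in 11 Onset neurons and 1 Sustained neuron, and Stxbp5 in 29.3% and 36.4%, with the Onset mean set by few neurons of up to 2577 TPM. The other 6 ratios on the Onset side lay between 2.15 (Rims1) and 3.19 (Pclo). Of these genes, Vamp1, Rims1 and Syn1 were in a larger share of Onset neurons. Sv2a (15 of 41 Onset and 6 of 11 Sustained neurons), Unc13a (16 and 5 neurons) and Pclo were in a larger share of Sustained neurons. With geometric means Stxbp5, Unc13a, Pclo, Syn1 and Sv2a were not called, and Snap25 was.

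On the Sustained side, Napb had medians of 0 TPM in Onset and 31 TPM in Sustained neurons and was detected in 46.3% (30.7 to 62.6) and 72.7% (39 to 94.0). Its mean was 2.38 times higher in Sustained neurons, but it was not called on rescaled values. Syt7 was in 4 of 41 Onset and 3 of 11 Sustained neurons, at up to 22 and 14 TPM. The genes that set pLSOs apart from LOCs were found in both patterns, Syt2 in 73.2% of Onset and 54.5% of Sustained neurons and Cplx1 in 92.7% and 81.8%.

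A further 78 release genes, from lists of the same pathways, gave 51 compared genes, of which 8 (15.7%) were higher in pLSOs and 8 (15.7%) in LOCs, close to the whole table. Among 18 other retrieval genes, 5 were higher in pLSOs (Sh3gl1, Itsn1, Itsn2, Ap2a1, Ap2b1) and 0 in LOCs, where 21.0% of all genes were called for pLSOs. The endocytic scaffold gene Itsn1 was in 53.8% of pLSOs and 35.7% of LOCs, with a ratio of 6.86. The remaining pLSO genes were the sensor Syt3 (ratio 4.22) and the active zone genes Ppfia2 (2.33) and Apba1 (5.10).

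Among 10 other vesicle membrane and surface genes, 4 were higher in LOCs (Syn3, Synpr and Sncg among them) and 0 in pLSOs, where 15.3% of all genes were called for LOCs. Synaptoporin (Synpr), a relative of synaptophysin, was in 2 of 52 pLSOs and 14 of 28 LOCs, with 0 to 8 and 0 to 113 TPM. Sncg (gamma-synuclein) was in 32.7% and 71.4%, with medians of 0 and 39.5 TPM. The other LOC genes were Syt5, Ppfia3, Ppfia4 and Lin7a, with ratios (LOC over pLSO) of 6.60, 18.9, 2.46 and 2.31.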

How the data were processed

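Single-cell libraries of 86 labelled LSO neurons and 10 negative controls were considered. The authors trimmed reads with Trim Galore 0.4.2, aligned them with STAR to mm10, marked duplicates with Picard 1.115, counted with featureCounts and derived TPM. The score values of the table are these TPM as deposited, written without decimals, with library totals from 999773 to 1000026. The table holds no read counts; the study gives mapped reads for neurons and controls as groups, with fewer in controls, and not per library, so the depth of a library is not known here.

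Names and lengths were taken from Gencode vM21 (GRCm38), in which 37570 of 38887 genes have a length. The deposited values appear to be divided by gene lengths sorted along the rows and not by each gene's own length, an inference from the values, so levels between genes were compared after rescaling to the own length less 80 bases, which affects ratios within a gene only through library totals. The 8 libraries left out were found by comparing the table with published cluster means. The members, lists and rules were chosen with earlier results of these data known. Every release gene is named with its share, and values are given for called genes and for paralogs; of the further release genes, 1 called gene is not reported here.

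Detection means 1 TPM or more, which by the inference on lengths above stands for different read numbers in different genes. Genes in at least 20% of the neurons of either class were compared, and a ratio of means of at least 2, also without the highest neuron of each class, was called. Intervals are exact Clopper-Pearson 95% intervals, and 0 of n allows 3 of n; both cover counting error only. Alternatives were all labelled libraries, 10 TPM as threshold, rescaled values, geometric means (pseudocount 1), 4-fold, neurons with 2000 to 3500 genes, and no minimum share. Added after seeing the data were 4-fold with a 20-point share difference, and neurons without high glial markers. Tables were handled with pandas 2.3.3 and NumPy 2.4.6 under Python 3.11.15, intervals came from SciPy 1.17.1, row lengths from scikit-learn 1.9.0, and figures from matplotlib 3.10.9. Promoter windows are from RefSeq.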

Additional observations from a re-analysis of the deposited data

Results flagged for a closer look

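For 25 of the 30 release genes detected in any control, 1 of the 8 controls stood apart from the other 7 by Dixon's criterion (95%). The control that stood apart differed from gene to gene. By chance the criterion flags about 1 in 20 groups of normally distributed values. That rate does not hold here, because many values are 0, and 11 of these genes were at 0 in 7 controls, where any value in the eighth is flagged. The outlying values were 389802 TPM for Lin7b, 26796 TPM for Napa, 11793 TPM for Syn2, 6751 TPM for Rab3b, 1476 TPM for Cplx2, 1254 TPM for Vamp2, 1063 TPM for Rab3c and 991 TPM for Cplx1. Lower outlying values were 456 TPM for Syt7, 423 TPM for Stxbp5, 218 TPM for Sypl, 162 TPM for Syt4, 122 TPM for Rims1, 105 TPM for Cadps, 102 TPM for Erc1, 93 TPM for Syp and 70 TPM for Dnm1. The lowest were 17 TPM for Amph, 11 TPM for Syt2, 9 TPM for Napb, 7 TPM for Syn1, 4 TPM for Pclo, 2 TPM for Vamp1, 2 TPM for Unc13b and 1 TPM for Sv2c. The release genes summed per length reached 37130 rescaled TPM in 1 control, against a median of 1272. Syt1, Rims2, Cadps2, Unc13a and Stx1a were at 0 in all 8 controls.

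Of the 2 controls that were left out, NC6 held 19 of the 43 release genes, more than the highest of the 8 controls used (15).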

How the results depend on the processing

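No paired analysis was possible because the labels name no animal and give no replicate numbers shared between groups, and no test was made. At a detection threshold of 10 TPM, 11 release genes were in at least 50% of neurons, the median per pLSO was 14, and 7 genes were called for Onset and 1 for Sustained neurons. With geometric means 7 and 4 were called for Onset and Sustained neurons. At 4-fold 5 were called for pLSOs, 2 for Onset and 0 for Sustained neurons, and 3 other release genes for pLSOs. At 4-fold with a 20-point difference 5 were called for pLSOs. Rescaled values (Syt7) and the window of 2000 to 3500 genes (Napb) each gave 1 for Sustained neurons. Without a minimum share 16 other release genes were called for pLSOs and 18 for LOCs (21.3% and 24.0% of 75). The share over the whole table was not taken without a minimum share or at 10 TPM. It was also not taken for Sustained neurons on rescaled values and in the window of 2000 to 3500 genes. Called counts at these settings are therefore not read as results about release genes. The cause of the changes between settings was not tested. No ratio of the 14 called genes changed direction under any alternative run, with 65 values within 1.5-fold and 19 beyond. The shifts beyond 1.5-fold with geometric means were Syt1 (5.05), Syt2 (16.4), Cplx2 (1.56), Rims2 (4.25) and Amph (9.67), pLSO over LOC, and Rab3b (321), Sv2a (1.39) and Cadps2, LOC over pLSO. In the depth window they were Syt2 (2.13), Syt11 (3.14), Cplx2 (1.57), Cadps (8.86, LOC over pLSO) and Cadps2, at 10 TPM Rims2 (20.1) and Cadps (8.03), without high glial markers Syt2 (2.93), Cplx2 (1.63) and Erc1 (7.27), and with all labelled libraries Rab3b (21.5). For Cadps2 no ratio is given. Shares of neurons fell outside their interval only at 10 TPM, for 16 of 28.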
